A study of Mus musculus with 15 samples.

Results

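The genes described here are the mouse homologs of 30 genes that have been linked to autism in humans. They were taken from a list of symbols that holds no measured value but was chosen with earlier results of these data known. All 30 were found among the 26145 genes of the deposited tables, each with 1 Ensembl identifier. They comprise 3 synaptic scaffolds, 3 adhesion proteins, 7 signalling and ubiquitin ligase genes, 6 transcription factors, 9 chromatin regulators and 2 transcriptional co-regulators.

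Single cells of the mouse prefrontal cortex (PFC), the frontal cortical region of planning and behavioral control, were sequenced in 15 libraries of male C57BL/6N mice. There were 12 libraries of adults, named P60 here and aged 8 to 10 weeks in the labels, and each pooled the PFC of 2 mice. Saline or cocaine was self-administered through an intravenous line, and 2 saline and 2 cocaine libraries were made at each of the maintenance phase, 48 h of withdrawal and 15 days of withdrawal. The study placed this line at P60, and 15 days of sessions and up to 15 days of withdrawal followed. Mice were therefore older than P60 at collection, by an amount that differed between the time points. The remaining 3 libraries came from mice at P21 (3 weeks) with no self-administration phase in the labels, and 4 mice were used for them. With 2 mice in a pool, 4 mice fill 2 pools, so that the 3 P21 libraries would share animals and may not be independent, and which of them share is not stated in the sources used here. Titles and source names give the PFC, whereas the tissue field of the labels reads nucleus accumbens. The 2 ages share no library and the labels name no batch, so that age and any difference in preparation cannot be told apart. By the study's methods, saline mice also had food restriction, food training, catheter surgery and saline sessions, none of which is described for P21. Age and this treatment cannot be told apart either, and a change with age below means P60 saline against P21.

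Genes linked to autism fall largely into those that act at synapses and those that act on chromatin and transcription. Shank proteins hold together the postsynaptic density of excitatory synapses, adhesion proteins such as Cntnap2 act in wiring and axon organization, and factors such as Tcf4, Foxp1 and Mef2c direct neuronal differentiation. Many of these genes are also used outside neurons, β-catenin (Ctnnb1) in the Wnt signalling of brain endothelium being an example.

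The retained cells of a library numbered 1055 to 4439 and held 8375172 to 42892922 unique molecular identifiers (UMIs), each of which counts 1 captured mRNA molecule. Any pair of libraries shared at most 27 cell barcodes, and at most 1.09% of those of the smaller library. For each library the UMIs of all cells in a class were added up, and levels are given as UMIs per 1000000 UMIs of that class (CPM), as mean ± SD over libraries. Since UMIs were read from the 3′ ends of transcripts, levels are compared between cells and not between genes. Among replicates, P21 library 1 stood apart from the other P21 libraries in excitatory neurons, with a chi-square per degree of freedom of 39.3 and 44.4 against 3.68 between libraries 2 and 3. Replicate pairs at P60 gave 6.6 to 16.9, the highest for the saline libraries of 15 days of withdrawal. P60 library 3 held 8 astrocytes, 3 oligodendrocyte precursors and 0 newly formed oligodendrocytes and was left out for those classes.

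The cell classes are those of the authors, and markers of each class were highest in their own class at P60. At P21 this did not hold for the cells classed as oligodendrocyte precursors, in which neuronal markers (Snap25, Syt1 and Rbfox3) summed to 3647 and 3724 CPM in the 2 libraries with enough cells and precursor markers (Pdgfra, Cspg4 and Olig1) to 289.6 and 507 CPM. In P60 saline precursors the same lists summed to 181 to 2205 and 1117 to 2086 CPM. P21 cells received their class by correlation with P60 clusters, and in 256, 96 and 107 cells of P21 libraries 1, 2 and 3 the class differs from that of their cluster.

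Levels of the homologs were compared across the 8 classes at P60. The highest mean level was found in oligodendrocyte precursors for 9 genes, in endothelial cells for 9, in inhibitory neurons for 6, in excitatory neurons for 4, and in astrocytes and mature oligodendrocytes for 1 each. The lowest mean was in mature oligodendrocytes for 9 genes, in microglia for 8, in newly formed oligodendrocytes and endothelial cells for 6 each, and in astrocytes for 1. Shank3, which had no UMI in several classes, is counted under microglia here. In 5 genes (Cntnap2, Ctnnb1, Foxp1, Tcf4 and Mef2c) the P60 libraries of the highest class did not overlap those of the second, whereas in the other 25 they overlapped. Of the 14214 genes tested for age in at least 1 class, 16.7% had a highest class without overlap, and the count of homologs was near this background. The highest mean was in precursors for 15.1% of these genes, in endothelial cells for 18.6%, in inhibitory neurons for 14.8% and in excitatory neurons for 17.8%. These levels are descriptions, because the classes were drawn from the same cells.

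**Figure D1:**
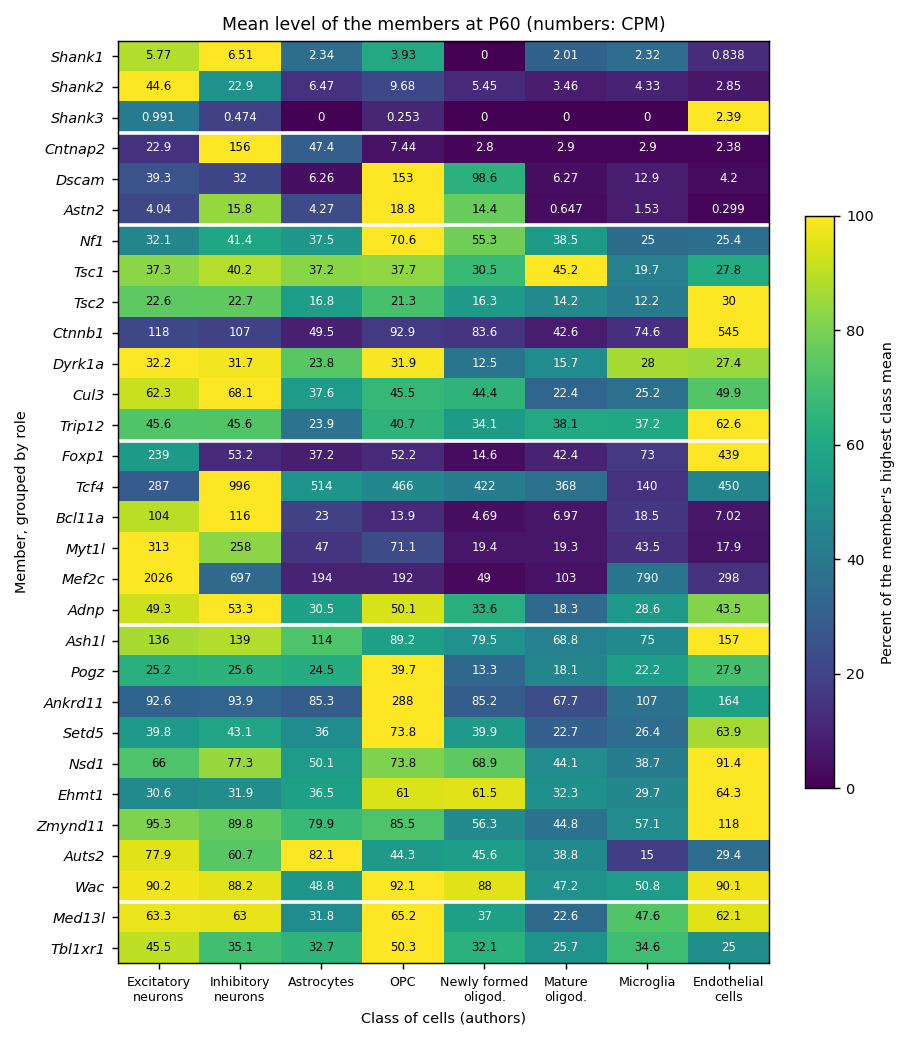
Mean CPM of each homolog (rows, ordered by role) in each cell class (columns) over the P60 libraries, drawn relative to the highest class of that gene. Cntnap2 and Tcf4 stood out in inhibitory neurons, Ctnnb1 and Foxp1 in endothelial cells and Mef2c in excitatory neurons, while most chromatin regulators were spread over all classes.

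Among the scaffolds, Shank2 had its highest class mean in excitatory neurons. It ranged from 38.8 to 56.1 CPM over the 12 P60 libraries with a median of 43.8, and from 15.8 to 48.8 CPM in inhibitory neurons with a median of 20.6, so that the classes overlapped. One inhibitory cluster, Inhib_5, was at 56.75 ± 1.43 CPM (n = 2). Every other class had a mean of at most 9.68 CPM. Shank1 was at 6.51 ± 3.96 CPM in inhibitory and 5.77 ± 1.155 CPM in excitatory neurons (n = 12 each), which does not separate them. Shank3 was scarcely captured, with means of 2.39 ± 1.62 CPM in endothelial cells and 0.991 ± 0.349 CPM in excitatory neurons. No Shank3 UMI was counted in P60 astrocytes, in either mature or newly formed oligodendrocytes, or in microglia, which allows levels of up to 0.559, 0.517, 1.70 and 0.753 CPM in that order, for counting error only.

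Among the adhesion genes, Cntnap2, a neurexin relative that organizes potassium channels along axons, lay between 126 and 234 CPM in inhibitory neurons with a median of 144, between 28.5 and 71.6 CPM in astrocytes, and at 22.9 ± 3.31 CPM in excitatory neurons. Inhibitory neurons thus stood above every other class without overlap, and the mean in endothelial cells was 2.38 ± 2.40 CPM. Dscam, an immunoglobulin-type adhesion protein, was at 153 ± 40.8 CPM in oligodendrocyte precursors and 98.6 ± 24.4 CPM in newly formed oligodendrocytes (n = 11 each), but at 6.27 ± 4.60 CPM in mature ones. Astn2, which traffics surface proteins in migrating neurons, had means of 18.8 ± 6.195 CPM in precursors and 15.8 ± 6.20 CPM in inhibitory neurons, which overlapped.

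Of the signalling genes, Ctnnb1 set the endothelium apart. Its 12 endothelial values lay between 386 and 674 CPM with a median of 533, and those of excitatory neurons, the next class, between 97.8 and 136 CPM. The RasGAP gene Nf1 was highest in precursors (70.6 ± 23.8 CPM), Tsc1 in mature oligodendrocytes (45.2 ± 14.5 CPM) and its partner in restraining mTOR, Tsc2, in endothelial cells (29.99 ± 6.08 CPM). The kinase gene Dyrk1a reached 32.25 ± 3.06 CPM in excitatory neurons, and the ubiquitin ligase genes Cul3 and Trip12 reached 68.1 ± 13.6 CPM in inhibitory neurons and 62.6 ± 8.00 CPM in endothelial cells. Each of these overlapped with the next class.

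Of the 6 transcription factors, Tcf4, Mef2c and Foxp1 had a highest class without overlap. Tcf4, a basic helix-loop-helix factor, was at 887 to 1239 CPM in inhibitory neurons with a median of 964, above the 426 to 597 CPM of astrocytes, and at 287 ± 13.65 CPM in excitatory neurons. Mef2c, which responds to neuronal activity, was at 1705 to 2281 CPM in excitatory neurons with a median of 2030, above the 576 to 1123 CPM of microglia. Foxp1 differed in a further way, with 344 to 520.5 CPM in endothelial cells against 186 to 292 CPM in excitatory neurons, and only 53.3 ± 21.6 CPM on average in inhibitory ones. Bcl11a, a zinc finger factor of projection neuron identity, was shared by both neuronal classes (116 ± 25.65 CPM in inhibitory and 104 ± 11.03 CPM in excitatory neurons) and was at most 23.0 CPM on average elsewhere. Myt1l, a repressor of non-neuronal genes, was likewise high in both neuronal classes, with 313 ± 18.6 CPM in excitatory neurons against 258 ± 31.6 CPM in inhibitory ones. Adnp was broad, with 53.3 ± 11.2 CPM in inhibitory neurons, 50.1 ± 12.0 CPM in precursors and 49.3 ± 4.06 CPM in excitatory neurons.

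UMIs of the chromatin regulators and co-regulators were counted in every class, and how many came from other cells was not tested. Ankrd11, which recruits histone deacetylases, was at 176 to 390.5 CPM in precursors with a median of 279 and at 143 to 196.5 CPM in endothelial cells, and its lowest mean was 67.7 ± 8.97 CPM in mature oligodendrocytes. The histone methyltransferase genes Ash1l, Nsd1 and Ehmt1 and the histone reader gene Zmynd11 were highest in endothelial cells, at 157 ± 19.6, 91.4 ± 10.7, 64.3 ± 7.31 and 118 ± 13.7 CPM. Setd5, Pogz, Wac, Med13l of the Mediator complex and Tbl1xr1 of a corepressor complex were highest in precursors, at 73.8 ± 31.7, 39.7 ± 11.02, 92.1 ± 27.3, 65.2 ± 20.95 and 50.3 ± 18.0 CPM. Auts2, a partner of Polycomb proteins, was at 82.1 ± 16.9 CPM in astrocytes, 77.9 ± 11.8 CPM in excitatory neurons but 15.0 ± 13.6 CPM in microglia.

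Within excitatory neurons, the authors distinguished 26 finer clusters, and how far the cluster means differed varied by homolog. The highest cluster mean was 25.1 times the lowest for Auts2 but 1.47 times for Wac. Auts2 was at 157 ± 44.5 CPM in cluster Exc_1 (n = 11), 124 ± 41.8 CPM in Exc_3 and 6.24 ± 5.86 CPM in Exc_21 (n = 12). Exc_1 and Exc_3 belong to the clusters with most Cux2 (119.6 and 224 CPM) and Calb1 (316 and 293 CPM), genes of layers 2 and 3. Exc_21 is the cluster with most Etv1 (705 CPM) and Tshz2 (2099 CPM), genes of layer 5. Auts2 did not follow these genes in every cluster. Its mean in Exc_6, the cluster with most Cux2 (238 CPM), was below that in Exc_22 and Exc_25, with 189 and 286 CPM of Etv1. Bcl11a had its highest mean in Exc_21 (245 ± 50.9 CPM, n = 12) and its lowest mean in Exc_17 (30.4 ± 9.08 CPM, n = 9).

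Mef2c ranged from 3097 ± 126 CPM in Exc_17 (n = 9) to 701 ± 82.2 CPM in Exc_20 (n = 8). The 3 clusters with the lowest Mef2c, Exc_18, Exc_19 and Exc_20, were those with most Syt6 (75.5 to 112 CPM) and Foxp2 (119.5 to 172 CPM), genes of layer 6, and they also had the highest Myt1l, up to 476 ± 36.5 CPM in Exc_20. Foxp1 was at 423 ± 45.0 CPM in Exc_10 (n = 12) and 109 ± 20.6 CPM in Exc_2 (n = 12). Cntnap2, low in the excitatory class as a whole, reached 79.0 ± 30.4 CPM in Exc_26 (n = 8), the cluster with most Pou3f1 (91.2 CPM), against a median of 18.2 CPM over clusters. Exc_26 also held the highest mean of Shank1, Astn2, Nf1, Cul3, Trip12, Adnp and Wac. For each of the 30 genes the libraries of the highest excitatory cluster overlapped those of the second.

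Of the inhibitory clusters, 7 had enough cells in 2 or more P60 libraries. Bcl11a was at 179 ± 29.7 CPM in Inhib_7 (n = 9) and 5.21 ± 7.36 CPM in Inhib_10 (n = 2), a cluster with 5981 CPM of Vip, a peptide gene of interneurons. Dscam had 5.00 ± 4.57 CPM in Inhib_7, 60.7 ± 12.2 CPM in Inhib_10 and 58.5 ± 5.30 CPM in Inhib_2 (n = 6), a cluster with 23490 CPM of Sst. Mef2c reached 1305 ± 13.5 CPM in Inhib_8 (n = 2), and Inhib_8 did not overlap the next cluster (1007 ± 153 CPM in Inhib_3, n = 4).

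The study asked how cell types of the PFC change between adolescence and adulthood, and the P60 saline libraries were compared with P21 for this. In excitatory neurons 3 of the 30 homologs passed the test, all of them lower at P60: Bcl11a, Adnp and Ctnnb1. The test was edgeR's quasi-likelihood test on UMI counts summed per library, and calls needed a p-value under 0.05 after Benjamini-Hochberg adjustment together with a fold change over 1.5. Of all 13080 genes tested in excitatory neurons, 18.1% were called and 10.1% were called lower, so that the share of homologs was no higher than the background. The p-values measure the spread between these libraries and treat the 3 P21 libraries as independent, so that they are too small if these share animals. With P21 libraries 2 and 3 summed as 1, 2 homologs were called in excitatory neurons and 12 pairs instead of 19 over all classes.

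Bcl11a ranged from 84.5 to 110.3 CPM in the 6 saline libraries, with a median of 101, and was at 173, 159.7 and 167 CPM in P21 libraries 1, 2 and 3. The log2 fold change (P60 saline minus P21) was -0.72 (SE 0.08, adjusted p = 5.84e-05). Adnp, a homeodomain zinc finger factor that joins chromatin remodelers, ranged from 41.4 to 55.3 CPM with a median of 49.7 in saline and was at 66.8, 86.8 and 87.0 CPM at P21 (-0.65, SE 0.10, adjusted p = 0.000274). In both genes the groups did not overlap.

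Ctnnb1 ranged from 97.8 to 127 CPM with a median of 119.8 in saline and was at 156, 199 and 192 CPM at P21. The log2 fold change was -0.63 (SE 0.09, adjusted p = 0.000301), again without overlap. Without P21 library 2 it was -0.56 and no longer past 1.5-fold, and the same held with P21 libraries 2 and 3 summed (-0.58). Bcl11a and Adnp remained called in each of these fits.

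**Figure D2:**
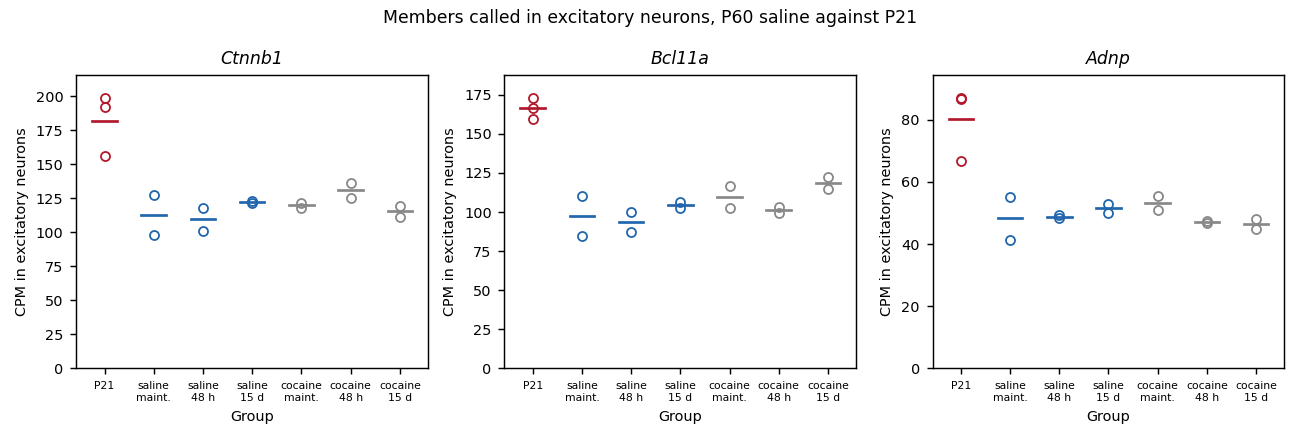
CPM in excitatory neurons in each library (points) for Ctnnb1, Bcl11a and Adnp, with P21 at the left, the 6 saline and cocaine groups of P60 beside it, and group means as lines. All P21 points of the 3 genes lie above every P60 point.

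The promoters of these 3 genes are shown because these were the homologs called in excitatory neurons, and a shared control of them was not tested. Each sequence spans 250 bases before to 50 bases after the annotated start, read 5′ to 3′ on the gene's strand from RefSeq (GRCm38.p6), and capitals mark GC boxes (GGGCGG or its complement CCGCCC), the letters recognized by Sp1-type factors. For Ctnnb1, which has 2 annotated windows in the table, the first is given.
Ctnnb1, chr9:120933150-120933449, plus strand: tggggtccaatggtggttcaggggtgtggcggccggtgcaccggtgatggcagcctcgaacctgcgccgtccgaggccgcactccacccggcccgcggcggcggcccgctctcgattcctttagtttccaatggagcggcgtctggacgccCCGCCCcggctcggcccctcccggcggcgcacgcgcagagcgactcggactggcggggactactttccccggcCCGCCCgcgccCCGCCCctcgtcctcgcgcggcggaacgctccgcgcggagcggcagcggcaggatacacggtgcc
Bcl11a, chr11:24080445-24080744, plus strand: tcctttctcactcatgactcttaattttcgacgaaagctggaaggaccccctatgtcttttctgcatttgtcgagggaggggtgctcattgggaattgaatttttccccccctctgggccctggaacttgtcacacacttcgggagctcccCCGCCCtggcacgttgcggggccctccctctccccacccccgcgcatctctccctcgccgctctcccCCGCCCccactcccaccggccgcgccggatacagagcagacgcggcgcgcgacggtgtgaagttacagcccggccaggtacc
Adnp, chr2:168207063-168207362, minus strand: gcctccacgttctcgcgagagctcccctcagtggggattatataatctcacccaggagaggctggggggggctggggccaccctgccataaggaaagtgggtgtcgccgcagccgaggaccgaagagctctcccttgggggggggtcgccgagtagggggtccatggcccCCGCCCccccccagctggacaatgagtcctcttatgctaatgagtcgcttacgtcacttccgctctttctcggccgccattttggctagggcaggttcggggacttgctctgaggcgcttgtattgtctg
These hold 3, 2 and 1 GC boxes and 75.3%, 63.0% and 62.7% G and C. GC boxes occurred in 15 of the 23 homolog promoters that could be matched by symbol, and in 35.9% of 27025 promoters of that length, with both strands searched. A full cAMP response element (TGACGTCA) was in 0 of the 23 homolog promoters and 1.88% of all, and its core (TGACG or CGTCA, which the full element contains) in 5 of 23 and 21.02% of all. A match is a description of the letters.

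In the genome of the counts (mm9, GENCODE annotation), Ctnnb1 (ENSMUSG00000006932) lies on chromosome 9 at 120838334 to 120869625, Bcl11a (ENSMUSG00000000861) on chromosome 11 at 23978056 to 24074123, and Adnp (ENSMUSG00000051149) on chromosome 2 at 168006486 to 168032612, the last on the minus strand. Since UMIs come from 3′ ends, genes that lie there are given, and their part in the counts was not tested. Dpm1 lies within 300 bases of the end of Adnp on the same strand, and its log2 fold change in excitatory neurons was 0.48 (SE 0.12, adjusted p = 0.00842 by edgeR). Ulk4 meets the end of Ctnnb1 on the other strand, with 0.25 (SE 0.12, adjusted p = 0.107).

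At an adjusted p below 0.05 without the fold minimum, 12 of the 30 homologs passed in excitatory neurons, 9 lower and 3 higher at P60, against 38.9% of all genes. The further lower ones were Dyrk1a (-0.54, SE 0.10), Cul3 (-0.31, SE 0.09), Nsd1 (-0.30, SE 0.08), Shank2 (-0.28, SE 0.08), Myt1l (-0.26, SE 0.07) and Trip12 (-0.22, SE 0.08). Dyrk1a came closest to the fold minimum, with 26.9 to 35.6 CPM in saline and 41.3, 54.3 and 48.5 CPM at P21. The 3 higher ones were Ash1l (0.35, SE 0.08), Mef2c (0.35, SE 0.09) and Tcf4 (0.24, SE 0.07). Mef2c ranged from 1776 to 2281 CPM in saline and was at 1698, 1650 and 1644 CPM at P21.

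Groups without overlap were found for 14 homologs in excitatory neurons, 11 with all saline libraries below and 3 with all above P21, while 33.7% of all genes had no overlap. The median log2 fold change was -0.14 over the homologs and -0.01 over all genes. The other 18 homologs were between -0.33 (Astn2, SE 0.16, adjusted p = 0.120) and 0.36 (Shank3, SE 0.38, adjusted p = 0.477), and the adhesion genes Cntnap2 (-0.09, SE 0.11) and Dscam (-0.17, SE 0.11) were among them. Excitatory cells of P21 had median UMI counts of 7285 to 11339 per cell and mitochondrial shares of 3.05% to 3.67%, those of saline P60 11898 to 14834 and 2.16% to 2.52%. The part of these differences in the result was not tested.

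**Figure D3:**
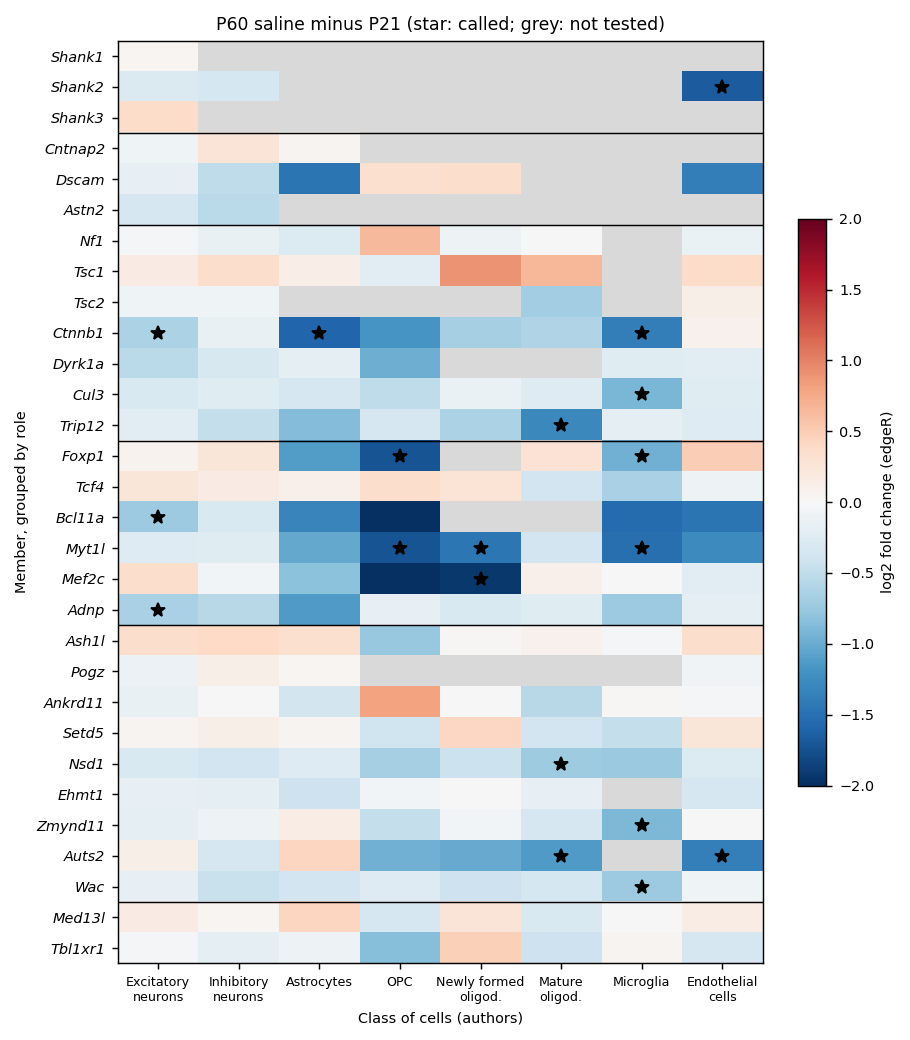
Log2 fold change (P60 saline minus P21) of each homolog in each cell class, with called changes marked. All 19 called changes lie below 0, and inhibitory neurons have none.

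Over the 8 classes, 191 of the 240 pairs of homolog and class had counts enough to be tested, and 15 of the homologs were tested in all 8. The test called 19 pairs, all lower at P60, in 13 of the genes. Of all 58184 pairs of gene and class, 9549 were called, 4443 higher and 5106 lower. The share was 9.95% for the homologs and 16.4% for all genes.

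No homolog was called in inhibitory neurons (0 of 28, against 14.1% of all genes by edgeR), and DESeq2 also called 0. There, 2 of 28 passed the adjusted p alone and 8 an unadjusted p below 0.05 by edgeR. Over all classes, 13282 of 58184 gene and class pairs passed the adjusted p alone and 36.1% an unadjusted p below 0.05. These shares pool the classes, and those of inhibitory neurons alone are not given here, so the 2 counts are not a result about the homologs. In inhibitory neurons there were 2 calls without P21 library 1, and 1 without P60 library 5 or P60 library 11. Adnp was at 34.4 to 67.1 CPM in saline and 65.55, 93.3 and 74.4 CPM at P21, overlapping (-0.55, SE 0.18, adjusted p = 0.0404). Ash1l was at 120.2 to 163 CPM and 97.15, 113 and 103 CPM, without overlap (0.41, SE 0.13, adjusted p = 0.0396). These differences have the signs found in excitatory neurons.

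In endothelial cells 2 of 26 homologs were called, against 13.3% of genes. Auts2 was at 18.0 to 29.4 CPM in saline with a median of 27.9 and at 78.7, 52.5 and 59.1 CPM at P21, so that no values overlapped (-1.37, SE 0.16, adjusted p = 9.77e-05). Shank2 was low, with 0 to 6.25 CPM in saline and 9.91, 7.84 and 9.07 CPM at P21 (-1.66, SE 0.46, adjusted p = 0.0235). Foxp1 was higher in saline, at 419 to 465 CPM against 337, 278 and 274 CPM (0.49, SE 0.10, adjusted p = 0.00407), and stayed under the fold minimum. Neuronal markers summed to 344 to 752 CPM in P21 and 54.8 to 641 CPM in saline endothelial cells, and their part was not tested. Auts2 had a log2 fold change of -1.42 in only those cells whose class and cluster agree, and Shank2 was not tested among them. Without P21 library 2 or 3, 1 homolog was called.

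In mature oligodendrocytes 3 of 21 homologs were called, against 16.5% of genes. Trip12 (-1.29, SE 0.36, adjusted p = 0.0242), Auts2 (-1.14, SE 0.33, adjusted p = 0.0253) and Nsd1 (-0.70, SE 0.23, adjusted p = 0.0402) were lower in saline, each with overlap between single libraries. Auts2, for example, was at 11.03 to 62.4 CPM in saline and at 104, 42.9 and 67.4 CPM at P21. All 3 were also called in cells whose class and cluster agree, while DESeq2 called 1 of 21 and Bonferroni adjustment left 0. Leaving out 1 library gave 0 to 4 calls, with 0 without P60 library 2 and 1 each without P60 library 3, P21 library 1 and P21 library 2. Neuronal markers summed to 77.8 to 574 CPM at P21 and 98.0 to 784 CPM in saline here.

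In microglia 6 of 18 homologs were called, against 42.3% of genes. They were Ctnnb1 (-1.39, SE 0.24), Myt1l (-1.51, SE 0.47), Foxp1 (-0.95, SE 0.29), Cul3 (-0.92, SE 0.34), Zmynd11 (-0.90, SE 0.28) and Wac (-0.73, SE 0.24), with adjusted p between 0.00144 and 0.0431. Myt1l, a gene of neurons, was at 9.89 to 147 CPM in saline and 178, 152 and 238 CPM at P21. Beside this, neuronal markers summed to 2240 to 2991 CPM in P21 and 150.3 to 1981 CPM in saline microglia, and microglial markers (C1qa, Cx3cr1, P2ry12 and Csf1r) to 2949 to 7491 and 14960 to 23120 CPM. Without P21 library 2 there were 2 calls, and without P21 library 3 there was 1. In cells whose class and cluster agree, Cul3 was not tested and the other 5 were not called (Ctnnb1 -0.98, adjusted p = 0.159, Foxp1 0.35, Myt1l 0.64).

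In astrocytes 1 of 25 homologs was called, against 7.62% of genes. Ctnnb1 was at 27.6 to 74.5 CPM in the 5 saline libraries and 115, 234 and 190 CPM at P21 (-1.58, SE 0.29, adjusted p = 0.00757). P21 astrocytes also held 996 to 1963 CPM of mature oligodendrocyte markers and 351 to 473 CPM of endothelial markers, and saline astrocytes 22.5 to 96.3 and 5.63 to 53.9 CPM. In cells whose class and cluster agree, Ctnnb1 was at -1.16 (adjusted p = 0.123). Without P60 library 11, 4 homologs were called.

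In oligodendrocyte precursors 2 of 23 were called, against 20.5% of genes, and in newly formed oligodendrocytes 2 of 20, against 5.96%. Foxp1 (-1.72, SE 0.51) and Myt1l (-1.72, SE 0.40) were lower in saline precursors, with Myt1l at 46.4 to 161.5 CPM against 258 and 276 CPM in the 2 P21 libraries. Mef2c (-1.94, SE 0.37) and Myt1l (-1.45, SE 0.41) were lower in newly formed oligodendrocytes, where neuronal markers summed to 627 to 945 CPM at P21 and 48.0 to 272 CPM in saline. Precursors gave 1 call without P60 library 5 or 7 and 5 without P60 library 11, and could not be tested without P21 library 1 or 2. Newly formed oligodendrocytes gave 1 call when any library entering the fit other than P21 library 3 was left out. The P21 precursors are the cells with more neuronal than precursor markers described above. In cells whose class and cluster agree, the precursors and Myt1l in newly formed oligodendrocytes were not tested, and Mef2c was at 0.50 (adjusted p = 0.665).

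With cells whose class and cluster agree, a comparison added after the data were examined, 7 pairs were called of 153 tested, against 11.6% of all pairs in the same cells. All 7 were among the 19 above, namely Bcl11a, Adnp and Ctnnb1 in excitatory neurons, Auts2 in endothelial cells and the 3 of mature oligodendrocytes. Of the remaining 12, 5 could not be tested with so few cells and 7 were tested and not called.

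A change called in 1 class and not in another does not show a difference, so the change in excitatory neurons was set against that of each other class within libraries (limma on the difference of log2 CPM). This called 11 of 157 homolog and class pairs, against 9.33% of all pairs. The difference was clearest for Auts2 against endothelial cells (1.44, SE 0.16, adjusted p = 0.000403), and the endothelium also differed for Ctnnb1 (-0.74, SE 0.13, adjusted p = 0.00551), which was at 462 to 654.5 CPM in saline and 463 to 503 CPM at P21 there. Foxp1 (-0.47) and Mef2c (0.56) were the other 2 against endothelial cells. The remaining 7 were against microglia, precursors and mature oligodendrocytes. Against inhibitory neurons 0 of 28 homologs were called by limma, with 1 at an unadjusted p below 0.05. The share of all genes for this pair of classes alone is not given here, so the 0 is not a result about the homologs. Over all classes, the 11 calls became 2 without P21 library 2, 5 without P21 library 3, 6 without P21 library 1, 7 without P60 library 5 and 17 without P60 library 11. The limma differences against inhibitory neurons were -0.46 (SE 0.15, adjusted p = 0.165) for Ctnnb1, -0.29 (SE 0.24, adjusted p = 0.685) for Bcl11a and -0.07 (SE 0.20, adjusted p = 0.915) for Adnp. The age change of these genes was thus not shown to differ between the neuronal classes, nor shown to be alike.

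A class can change because its clusters change in number, and so the ages were also compared within the finer clusters, of which 26 excitatory and 3 inhibitory ones could be tested. The test called 49 of 732 homolog and cluster pairs, 47 lower and 2 higher at P60, in 23 of the 29 clusters. Fewer pairs were called with DESeq2 or with a minimum of 30 cells, as given in the closing section. Over all genes 10.4% of such pairs were called and 6.22% were called lower. The 3 genes of the class comparison led the count.

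Ctnnb1 was called lower in 14 of 26 excitatory clusters and had a log2 fold change below 0 in all 26, from -1.18 (SE 0.21) in Exc_20 to -0.000569 in Exc_5. In Exc_20 it was at 58.9 to 94.4 CPM in 4 saline libraries and 161 to 229.9 CPM in the 3 P21 libraries, and in Exc_5 at 95.2 ± 24.3 and 95.7 ± 28.5 CPM. Adnp was called lower in 12 of 26 clusters and was below 0 in all 26, with -1.25 (SE 0.47, not called) in Exc_11 and -1.02 (SE 0.16, called) in Exc_25, where saline libraries were at 41.7 to 72.5 CPM and P21 libraries at 85.5 to 123 CPM.

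Bcl11a was called lower in 8 of 26 clusters and was below 0 in 25. It had -1.25 (SE 0.18) in Exc_9, with 47.7 to 79.6 CPM in saline and 115 to 159 CPM at P21, and -0.64 (SE 0.13) in Exc_21, its cluster of highest level, with 164 to 261 and 356 to 385.5 CPM. In Exc_26 it was at 66.6 to 126 CPM in saline and 51.6 to 79.0 CPM at P21 (0.27, not called). Clusters with a called decrease included some with most Cux2 or Calb1 (Exc_1 and Exc_4 for Ctnnb1, Exc_1 for Adnp, Exc_2 and Exc_3 for Bcl11a) and some with most Syt6, Foxp2 or Etv1 (Exc_19 for Ctnnb1 and Adnp, Exc_21 for Bcl11a).

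**Figure D4:**
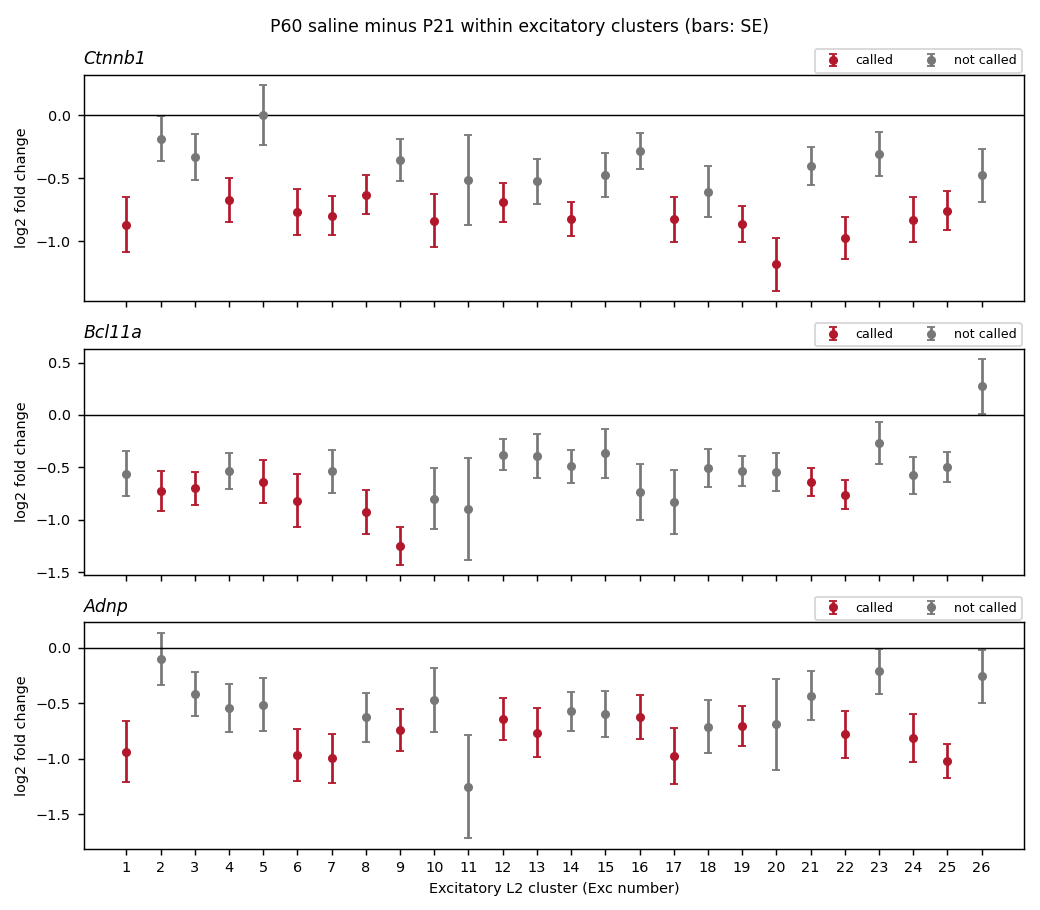
Log2 fold change (P60 saline minus P21) of Ctnnb1, Bcl11a and Adnp in each of the 26 excitatory clusters, with SE bars, and called clusters in red. Nearly all points lie below 0, and Bcl11a in Exc_26 is the exception.

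Of the other homologs, Dyrk1a was called lower in 4 clusters, Cul3 and Trip12 in 3 each, and Shank2, Nsd1 and Ankrd11 in 1 each. In Exc_22, a cluster with 189 CPM of Etv1, 6 of 27 homologs were called, against 19.7% of all genes there, with Shank2, Ctnnb1, Dyrk1a, Cul3, Bcl11a and Adnp lower at P60. Dyrk1a there was at 23.1 to 30.5 CPM in saline and 49.6 to 51.5 CPM at P21. The 2 called higher were Ash1l in Exc_15 (0.62, SE 0.19, adjusted p = 0.0388) and Mef2c in Inhib_7 (0.79, SE 0.15, adjusted p = 0.00393). Mef2c in Inhib_7 was at 874 to 999 CPM in 4 saline libraries and 509 to 534 CPM at P21. Shank1 and Shank3 had counts too low for any cluster.

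A list of 38 further autism genes outside these 30, also chosen with earlier results of these data known, was examined beside them. In excitatory neurons 6 of 38 were called, 4 lower and 2 higher, against 18.1% of all genes. The cortical factor gene Tbr1 (-0.89, SE 0.09), the demethylase gene Kdm6b (-1.07, SE 0.31), the synaptic adhesion gene Nlgn3 (-0.73, SE 0.10) and the transcription factor gene Deaf1 (-0.63, SE 0.09) were lower at P60. Of those that were higher, the methyltransferase gene Mll1 had a log2 fold change of 0.76 (SE 0.08). Their median was -0.15, near that of the 30 homologs. In all classes 27 of 223 pairs were called, 20 lower and 7 higher (12.1%, against 16.4% of all pairs).

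The study also asked how cell types respond to cocaine. By class, no homolog was called for cocaine against saline at any time point, by edgeR in 1 fit of the 12 P60 libraries. Of the homolog and class pairs, 0 of 128 were called at maintenance, 0 of 188 at 48 h and 0 of 188 at 15 days. At an unadjusted p below 0.05 there were 3, 6 and 7 (2.34%, 3.19% and 3.72%, against 4.71%, 4.52% and 5.35% of all pairs), and DESeq2 also called 0 at each time point. Over all genes 0.00459%, 0.00661% and 0.327% of pairs were called, so that few calls were found in general. Astrocytes, precursors and newly formed oligodendrocytes could not be tested at maintenance, where 1 saline library was left. Cocaine was not tested within the finer clusters. The study reported its main cocaine changes by excitatory subtype, with a method meant to pick out the responsive cells. It also described limited changes in non-neuronal classes, foremost in endothelial cells and then oligodendrocytes, and very subtle ones in few inhibitory subtypes. The calls by class do not speak to changes of homologs in single neuronal subtypes. Non-neuronal classes were tested here too, but with libraries and not cells as replicates.

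In excitatory neurons, the lowest p at maintenance was that of Wac, with 101 and 92.8 CPM in cocaine and 82.1 and 75.3 CPM in saline (0.28, SE 0.10, unadjusted p = 0.0128, adjusted p = 0.737). At 48 h it was that of Auts2, with 96.1 and 76.9 CPM in cocaine and 75.3 and 59.6 CPM in saline (0.34, SE 0.14, unadjusted p = 0.0251, adjusted p = 0.982). At 15 days it was that of Bcl11a, with 114 and 122 CPM in cocaine and 106 and 102 CPM in saline (0.23, SE 0.12, unadjusted p = 0.0699, adjusted p = 0.871). These genes were picked for their lowest p, so that the order of their libraries restates that choice, and none passed the adjustment.

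The 3 genes called lower in P60 saline than at P21 in excitatory neurons had log2 fold changes between -0.10 and 0.23 with cocaine. In the 6 cocaine libraries Ctnnb1 was at 111 to 136 CPM, Adnp at 44.9 to 55.4 CPM and Bcl11a at 99.5 to 122 CPM, all below the lowest P21 value of the gene (156, 66.8 and 159.7 CPM). Outside excitatory neurons the lowest p was that of Mef2c in precursors at 48 h (1.32, SE 0.42, unadjusted p = 0.0041, adjusted p = 0.999). Whether the cocaine effect differed between time points was tested as an interaction, and 0 of 188 homolog pairs were called, against 0.00827% of all pairs, with 4 at an unadjusted p below 0.05 (2.13%, against 4.25% of all pairs). DESeq2 also called 0. In astrocytes, precursors and newly formed oligodendrocytes this test covered only 48 h and 15 days.

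**Figure D5:**
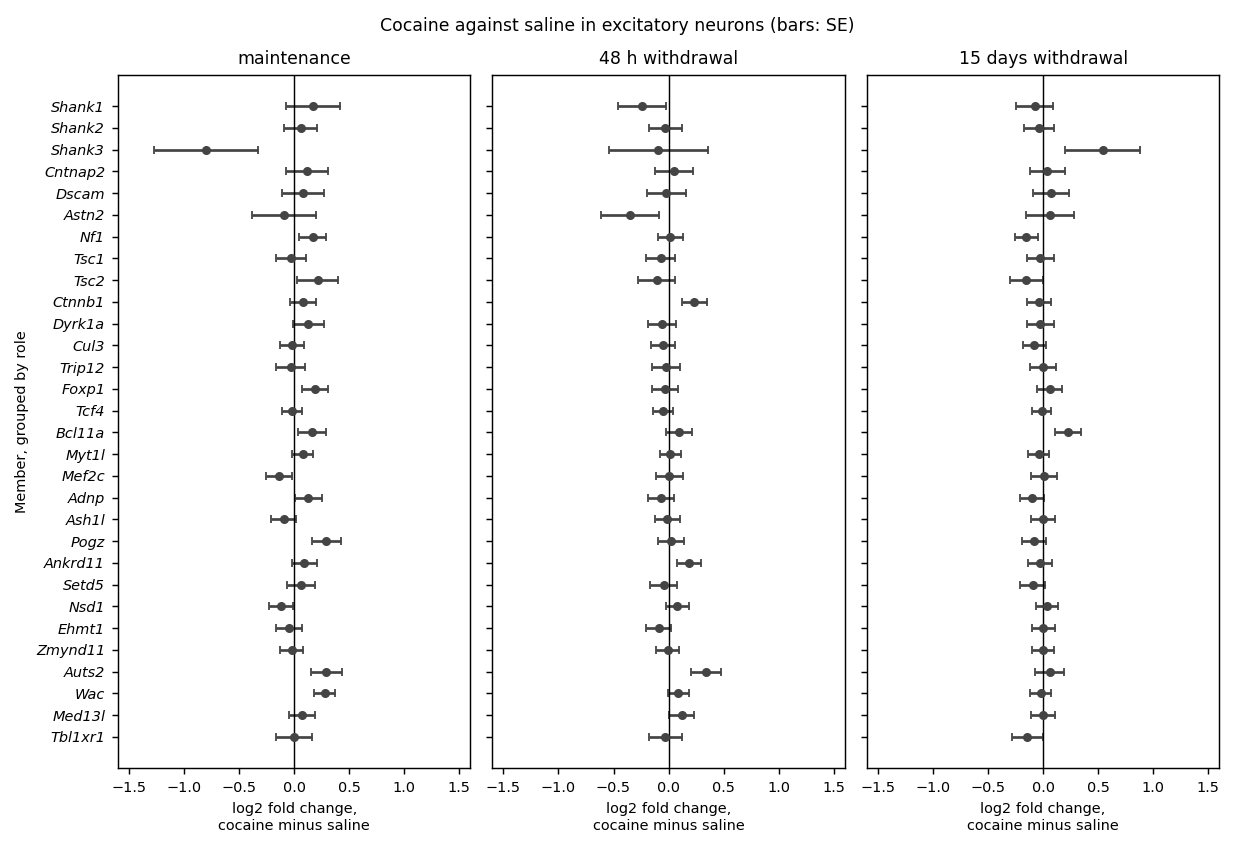
Log2 fold change (cocaine minus saline) of each homolog in excitatory neurons at maintenance, 48 h and 15 days of withdrawal, with SE bars. No homolog was called, and the widest bars belong to Shank3, which has few UMIs.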

How the data were processed

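Single-cell libraries of mouse PFC were analysed: 24822 retained cells of 12 P60 libraries and 10538 of 3 P21 libraries. The authors aligned reads to mm9 with Cell Ranger and deposited raw UMI counts per gene and cell. They also deposited a table of retained cells with class, L2 cluster and the fraction of UMIs from mitochondrial genes, which equalled that computed from the counts. Clusters were made by the authors with Seurat 2.1.0, after they removed cells with an unusually high number of genes as doublets, and no further doublet caller was run. For P21, the authors took each cell's name from its correlation with P60 clusters.

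Groups were taken from the sample labels. Before scaling, 13 mitochondrial genes and 144 genes of ribosomal proteins were dropped (8.84% to 11.1% of a library's UMIs), which left 25988 genes. UMIs were summed per library and class or cluster, and a library with fewer than 10 cells was left out. Sums were tested with edgeR 4.0.16 (R 4.3.3), using filterByExpr, TMM scaling and robust quasi-likelihood tests, and p-values were adjusted by the Benjamini-Hochberg method over all genes tested. Calls needed both an adjusted p under 0.05 and over 1.5-fold change. P60 saline (6 libraries) was compared with P21 (3 libraries, which must share animals if 4 mice were pooled by 2). Cocaine and saline were compared by class only, in 1 fit of all 12 P60 libraries with 6 group means. The precision is limited by 2 libraries a group. Changes with age were compared between classes with limma 3.58.1 (prior count 2, no fold minimum), pairing classes within libraries. SE was computed as the log2 fold change over the square root of F. The study itself tested cells rather than libraries. Tables were read with python 3.11.15 and pandas 2.3.3. The fits were tested on simulated data in which 200 genes had known 2-fold changes. With age, far more genes were called in some classes of the real data, such as 1896 of 4477 in microglia. The adjusted p depends on how many genes change, so the recoveries given next need not hold for the real data. With age, 1.16% were recovered in astrocytes, 3.77% in microglia, 9.73% in precursors and 48.1% to 80% in other classes. With cocaine at 15 days (the time point simulated), 5.5% were recovered in microglia, 11.1% in precursors and 28.8% in newly formed oligodendrocytes. Other classes gave 40% to 84.9% with cocaine. Between classes, 17.3% were recovered against inhibitory neurons and 25.8% against endothelial cells, and no other class was simulated there. Few or no calls in comparisons with low recovery, or between classes, do not show an absence of change. Positions come from the GENCODE annotation of mm9 and promoters from RefSeq.

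The 30 genes, the 38 further genes and the marker lists were chosen with earlier results of these data known. All 30 are named with a value, while values of single libraries and the lowest class are given for only some of them. Clusters named for a gene were chosen with their values in view. The settings varied were DESeq2 1.42.0 as the test, its size factors in edgeR, low counts unfiltered, no fold minimum, Bonferroni adjustment, 30 cells as the minimum, mitochondrial and ribosomal genes kept, all 12 P60 libraries, saline time points as separate groups, P21 libraries 2 and 3 summed, another prior count, the 6 saline libraries for levels and leaving out each library in turn. The restriction to cells whose class and cluster agree was added after the data were examined. A joined table of the same cells was not used. Of the genes called in the further list, 1 is not reported here.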

Additional observations from a re-analysis of the deposited data

Results flagged for a closer look

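The change with age (P60 saline minus P21) differed between excitatory neurons and another class for 11 of 157 pairs of homolog and class, against 9.33% of all pairs, by limma on within-library differences of log2 CPM with Benjamini-Hochberg adjustment. Each value is the log2 change in excitatory neurons minus that in the other class. Against endothelial cells it was -0.74 for Ctnnb1, -0.47 for Foxp1, 0.56 for Mef2c and 1.44 for Auts2. Against microglia it was 0.67 for Ctnnb1, 0.99 for Foxp1 and 0.88 for Tcf4, and against mature oligodendrocytes 0.60 for Tcf4.

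Against oligodendrocyte precursors it was 1.93 for Foxp1, 1.53 for Myt1l and -1.22 for Ankrd11. The cells classed as precursors and microglia at P21 held more neuronal marker UMIs than at P60, and the part of this in the differences was not tested. Leaving out 1 library at a time gave 2 to 17 such pairs, with 2 without P21 library 2, 5 without P21 library 3, 6 without P21 library 1, 7 without P60 library 5 and 17 without P60 library 11. No homolog had a single saline library set apart from the others in excitatory neurons by Dixon's test (0 of 30 genes, where chance alone would set apart about 1 in 20). This test takes 1 gene at a time and cannot show a shift of a library that many genes share. For Ctnnb1, Bcl11a and Adnp alike, P60 library 3 was the lowest and P60 library 2 the highest of the saline libraries. This order was not particular to these genes, since it was also that of Shank2, Dyrk1a, Trip12 and Med13l, though not of every homolog.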

How the results depend on the processing

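For P60 saline against P21 by class, 19 pairs were called. The number was 32 without a fold minimum, 2 with Bonferroni adjustment, 39 with saline time points as separate groups, 12 with P21 libraries 2 and 3 summed and 7 in cells whose class and cluster agree. Leaving out 1 library gave 8 to 29, with 8 of 173 tested pairs without P21 library 2, 12 of 196 without P21 library 3 and 29 of 170 without P60 library 11. The cause of these shifts was not tested. In excitatory neurons the 3 calls became 12 without a fold minimum and 1 with Bonferroni adjustment, and 2 to 4 when 1 library was left out. The 49 calls in clusters became 32 with DESeq2 and 30 with a minimum of 30 cells. The 11 differences between excitatory neurons and other classes became 2 to 17 when 1 library was left out. In inhibitory neurons 0 calls became 0 to 2, in astrocytes 1 became 1 to 4, in precursors 2 became 1 to 5, in newly formed oligodendrocytes 2 became 1 to 2, in mature oligodendrocytes 3 became 0 to 4, in microglia 6 became 1 to 8 and in endothelial cells 2 became 1 to 3. Cocaine, tested by class only, gave 0 calls in every alternative run. With the 6 saline libraries alone, 23 of the 30 genes had the same highest class. Of 600 log2 fold changes with age of single homologs in excitatory neurons under these alternatives, 586 kept their call or lack of one, 10 gained a call and 4 lost one. The sign changed in 13, none of them called. In cells whose class and cluster agree, Foxp1 and Myt1l in microglia (0.35 and 0.64) and Mef2c in newly formed oligodendrocytes (0.50) had the opposite sign and no call. Libraries of different groups could not be paired, because replicate numbers follow the order of samples and pair no libraries. At P21, libraries 2 and 3 held 47 and 44 microglia and 55 and 71 astrocytes, which limits the depth in these classes.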
